A study of Mus musculus with 49 samples.

Results

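The J-domain cochaperones were followed in the urinary bladder of female C57Bl/J mice that drank arsenate, an inorganic arsenic salt. Members were all genes whose symbol is Dnaja, Dnajb or Dnajc with a number and that have a probe set assigned to 1 gene in the annotation of the Affymetrix Mouse430_2 array. This gave 44 members out of 18193 such genes, 4 of class A, 13 of class B and 27 of class C, with 104 probe sets between them. Arsenate was given in drinking water at 0.5, 2, 10 or 50 ppm, and control mice drank water without it. Bladders were taken after 1 week, at an age of 76 days, or after 12 weeks, at an age of 155 days. Each of the 10 groups held 5 arrays of 1 mouse each, except 0.5 ppm at 1 week with 4, and the labels name no genetic change in any group. The first number in a mouse's label is the same throughout its group and its meaning is not given, so dose cannot be told apart from it. All dose comparisons of a harvest use the same water arrays, which enter the slopes and the comparison of harvests again.

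J-domain proteins bind clients and HSP70 chaperones and stimulate the ATPase of HSP70 through a conserved histidine-proline-aspartate motif in the J domain. Class A proteins carry a J domain, a glycine and phenylalanine-rich stretch and a zinc finger. Class B proteins lack the zinc finger, and class C proteins share only the J domain and are otherwise built for particular sites such as the ribosome, the endoplasmic reticulum, mitochondria or clathrin-coated vesicles. Arsenicals bind thiols of proteins and are known inducers of the heat shock response in cultured cells.

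Levels are log2(signal + 16), a scale with a floor of 4, and a change is the log2 difference, ± SE, between a dose and water at the same harvest. A member is called, and said to have risen or fallen, where limma gave a Benjamini-Hochberg adjusted p under 0.05 over the 14624 genes tested. Of the 44 members 42 were tested. Dnajb7 and Dnajc5g, which are known from testis, lay above the 40th percentile of their array in fewer than 4 arrays and were left out. Another 36 lay above it in each of the 49 arrays. The remaining 6 passed in part of the arrays, namely Dnajb3 in 4, Dnajc5b in 5, Dnajc22 in 10, Dnajb8 in 15, Dnajb13 in 40 and Dnajc27 in 45. The means of the 10 groups spanned 0.20 in Dnaja3, a mitochondrial class A protein, and 1.32 in Dnajc22, with a median span of 0.47 over the 42 members.

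The widest spans in each class had different groups at their ends. In class A these were Dnaja1 (0.78) and Dnaja2 (0.42), cytosolic partners of HSP70, both lowest at 50 ppm after 1 week and highest at 50 ppm after 12 weeks, and Dnaja4 (0.46), lowest at 2 ppm after 1 week and highest at 2 ppm after 12 weeks. In class B they were Dnajb14 (1.29), with its ends in the water groups of 12 weeks and 1 week, Dnajb5 (1.07), lowest at 10 ppm after 12 weeks and highest in water at 1 week, and Dnajb4 (0.94), with the same ends as Dnaja1. In class C they were Dnajc22, Dnajc2 (0.83), lowest in water at 12 weeks and highest at 0.5 ppm after 1 week, and Dnajc5b (0.79), lowest at 50 ppm after 1 week and highest in water at 12 weeks. Dnajc22 and Dnajc5b are dim, and the lowest group mean of Dnajc22, 4.63 in water at 1 week, lies near the floor. Besides Dnaja3, the narrowest spans were those of the mitochondrial members Dnajc4 (0.20) and Dnajc11 (0.20).

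Markers of the bladder wall and lining were present in every group, and the mean of 5 umbrella and intermediate urothelium markers lay between 13.65 and 13.96 in the 10 groups. That of 6 fibroblast markers ranged more widely, between 12.86 at 10 ppm after 12 weeks and 13.81 in water at 1 week. Wider still were the group means of skeletal muscle markers (10.90 to 11.92), adipocyte markers (9.41 to 10.54) and liver markers (5.58 to 8.65). In whole bladders, fewer cells of a type and less RNA per cell cannot be told apart. Of the 49 arrays, 3 stood apart from their groups most. Replicate 2 of 50 ppm at 1 week deviated from its group mean by a median of 0.299 over all genes and 0.306 over the members, the highest of the 49 arrays in both. Replicate 1 of 0.5 ppm at 12 weeks deviated by 0.285 and 0.280. Replicate 2 of water at 12 weeks deviated by 0.242 and 0.272, against array medians of 0.137 and 0.130. Comparisons of 50 ppm and water that rest on the replicates 2 are given with and without both, an alternative chosen after seeing the data.

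At 50 ppm after 1 week, Dnajb14 fell. It encodes a class B protein of the endoplasmic reticulum membrane whose J domain faces the cytosol, where it works with HSP70 in quality control of membrane proteins. The 5 arrays of 50 ppm read 8.04, 8.15, 7.78, 8.2 and 7.49, against 9.12, 9.24, 9.13, 8.79 and 9.04 in water. The groups did not overlap, and the means were 7.93 ± 0.30 and 9.06 ± 0.17 (SD, n = 5 each). The change was -1.13 ± 0.14 (limma adjusted p = 0.000296), a level 0.457 times that of water on this scale. Among 14624 genes it had the smallest p, while its size ranked 53. Without each of the 10 arrays in turn the change ran from -1.2 to -1.02 and kept its call. Dnajb14 was the 1 member called of 42, where 0.335% of all genes were called.

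Below 50 ppm, Dnajb14 did not pass the test at 1 week. Its mean was 9.06 in water, 8.95 at 0.5 ppm, 8.95 at 2 ppm, 8.76 at 10 ppm and 7.93 at 50 ppm. The slope over the 5 dose steps was -0.25 ± 0.04 per step (adjusted p = 0.00677), again the 1 member called, against 0.267% of all genes. At 12 weeks the water arrays read 8.08, 7.37, 8.08, 7.81 and 7.54, all below the lowest water array of 1 week, and the arrays of 50 ppm read 8.09, 8.15, 8.02, 8.16 and 9.74. At 10 ppm they spread over 9.69, 7.87, 8.74, 9.23 and 8.05. The changes of 0.94 ± 0.29 at 10 ppm (adjusted p = 0.116) and 0.65 ± 0.29 at 50 ppm (adjusted p = 0.163) did not pass the test, and replicate 5 of 50 ppm stood alone at the top of its group.

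These values come from probe set 1430561_at. The other probe set of Dnajb14, 1429468_at, ran from 7.19 to 8.23 over the 49 arrays, and its change at 50 ppm after 1 week was -0.11 ± 0.17 (adjusted p = 0.868). Within groups the correlation of both probe sets was r = 0.051 over 49 arrays. The fall was measured by 1 probe set of this gene, and the other did not show it. The mean of 7 liver marker genes moved with the same groups. It was 5.90 at 50 ppm after 1 week (5.51 to 6.68), against 8.65 in water of 1 week (6.98 to 9.75), and lay between 5.58 and 5.84 in the groups of 12 weeks. At 50 ppm after 1 week 5 of the 7 fell, and their part in the Dnajb14 values was not tested. Within groups the correlation of Dnajb14 with that mean was r = -0.097.

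**Figure D1:**
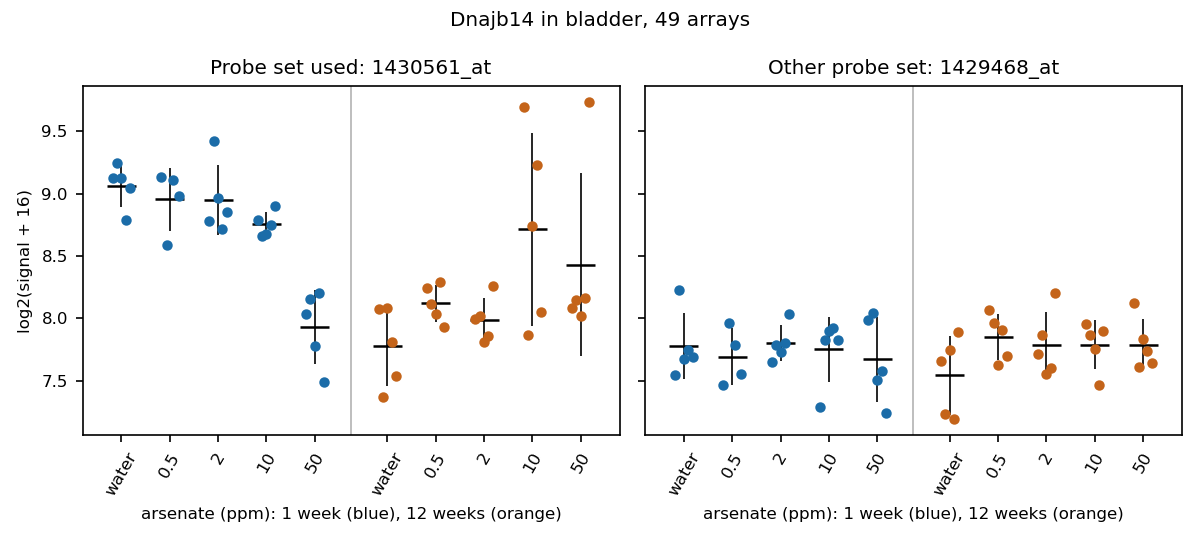
Log2 signal of Dnajb14 in each array (points) by arsenate dose in ppm, at 1 week (blue) and 12 weeks (orange), with group means (bars) and SD (lines), for the probe set used on the left and the other probe set on the right. The used probe set is lower at 50 ppm than in water at 1 week (7.93 and 9.06), while the other stays between 7.19 and 8.23 throughout.

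No other member was called at 50 ppm after 1 week. Class A had 1 of 4 members above water and a median change of -0.08, class B 4 of 12 with -0.20, and class C 11 of 26 with -0.01, against a median of 0.01 over all genes. A cytosolic list held 8 members, Dnaja1, Dnaja2, Dnaja4, Dnajb1, Dnajb2, Dnajb4, Dnajb5 and Dnajb6, whose induction by heat was not tested here. Its median was -0.15, and Dnajb6, which keeps aggregation-prone proteins soluble, stood at -0.33 ± 0.16 (adjusted p = 0.439). In that gene replicate 2 read 10.31 and the other 4 arrays of 50 ppm 11.31 to 11.70, against 11.37 to 11.84 in water, and without replicate 2 the change was -0.10. Of 11 members of the endoplasmic reticulum 3 were higher, with a median of -0.10. In mitochondria the change furthest from 0 was that of Dnajc11, at 0.19 ± 0.10 (adjusted p = 0.465). Among vesicle and clathrin members dim Dnajc22 stood at 0.63 ± 0.43. Dnajc2, which sits on the ribosome where chains emerge, stood at -0.26 ± 0.18, and dim, testis-enriched Dnajb3 at -0.34 ± 0.31.

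Lower doses gave no call at 1 week. At 0.5 ppm limma called 0 of 42 members, 6 at an unadjusted p under 0.05, where 0.0479% of all genes were called and 12.5% had an unadjusted p under 0.05. Dnajc21, needed to make the large ribosomal subunit, had the smallest p, at 0.57 ± 0.19 (adjusted p = 0.223). At 2 ppm 0 members were called and 3 had an unadjusted p under 0.05, with 0% and 5.93% of all genes. The smallest p was that of Dnajb1, the classical HSP40 of the cytosol, at -0.23 ± 0.09 (adjusted p = 0.78). RNA integrity in the 2 ppm group had a median of 7.2 (7.2 to 9.7), against 9.3 (8.8 to 9.7) in water. With it as a covariate 0 members and 0 of all genes were called at 2 ppm. At 10 ppm 0 members were called and 8 had an unadjusted p under 0.05, with 0.78% and 17.1% of all genes. Class medians at 0.5, 2 and 10 ppm were 0.12, 0.05 and 0.17 in class A, 0.01, -0.00 and 0.08 in class B, and 0.11, 0.04 and 0.09 in class C. The median over all genes was 0.01, 0.00 and 0.01, and 29, 26 and 31 of the 42 members were higher than in water, where 51.3%, 51.2% and 51.4% of all genes were.

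Dnajb5 and Dnaja1 lay nearest to a call at 10 ppm after 1 week. Dnajb5, a cytosolic relative of Dnajb1, read 10.43, 10.40, 9.70, 9.73 and 9.72 at 10 ppm, against 10.33, 10.75, 10.72, 10.86 and 10.70 in water, so that 3 arrays lay below the water range and the groups overlapped. Its change was -0.68 ± 0.18 (adjusted p = 0.0569), and its probe set 1421961_a_at passed with -0.76 (adjusted p = 0.0463). RNA integrity is not recorded for 2 of the 5 arrays of 10 ppm, those that read 10.43 and 10.40 and lay within the water range. A fit with it as a covariate leaves these out and gave a change of -1.09 (limma adjusted p = 0.00154). In that fit the covariate and the loss of the 2 arrays cannot be told apart. At 0.5 ppm Dnajb5 read 10.25, 10.02, 10.26 and 9.97, all below water, with a change of -0.55 ± 0.19 (adjusted p = 0.231). The mean of the skeletal muscle markers was also lower, at 11.48 for 10 ppm and 11.49 for 0.5 ppm, against 11.92 in water. At 2 ppm it was 11.92, where Dnajb5 had a mean of 10.41 against 10.67 in water. All 7 smooth muscle markers were lower at 10 ppm, with 0 called. The part of these markers in the Dnajb5 values was not tested. Dnaja1, the farnesylated class A protein that serves cytosolic HSP70, read 10.85, 10.77, 11.21, 10.92 and 11.12 at 10 ppm, against 10.51, 10.50, 10.20, 10.34 and 10.56 in water. Its groups did not overlap, and the change was 0.55 ± 0.17 (adjusted p = 0.101).

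**Figure D2:**
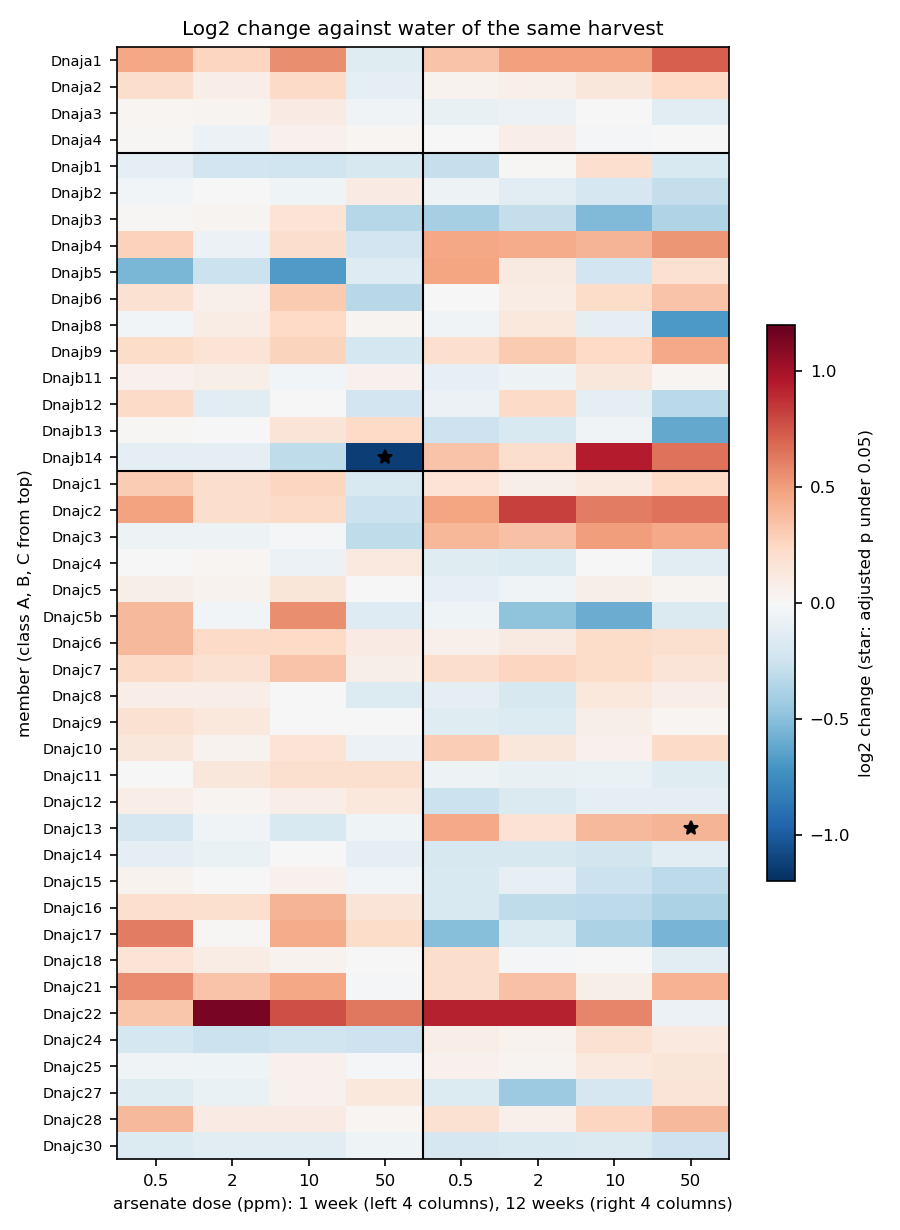
Log2 change of the 42 tested members (rows, classes A, B and C from the top) at each arsenate dose in ppm (columns) against water of the same harvest, with 1 week in the left 4 columns and 12 weeks in the right 4. Red is higher and blue lower than water, and a star marks an adjusted p under 0.05, which Dnajb14 reached at 50 ppm after 1 week and Dnajc13 at 50 ppm after 12 weeks.

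At 50 ppm after 12 weeks, Dnajc13 rose. It is a class C protein of endosomes, known as RME-8 in worms, where it works with HSP70 on clathrin coats. Its arrays read 9.92, 9.96, 9.99, 10.07 and 9.88 at 50 ppm, against 9.77, 9.32, 9.66, 9.39 and 9.66 in water. The groups did not overlap, with means of 9.96 ± 0.07 and 9.56 ± 0.20 (SD, n = 5 each). The change was 0.40 ± 0.12 (adjusted p = 0.0461), and it was the 1 member called of 42 (2.38%), where 4.06% of all genes were called. That share is no higher than the background. The call held in 1 of the 10 fits that left out an array, that without replicate 1 of water, with changes from 0.34 to 0.46, and without replicate 2 of water the change was 0.34 (adjusted p = 0.141). Without replicate 1 of water 8 members were called. The share of all genes called in that fit is not given here, so this count has no background beside it. Lower doses lay at 0.45 ± 0.12 at 0.5 ppm (adjusted p = 0.0552), 0.17 ± 0.12 at 2 ppm and 0.39 ± 0.12 at 10 ppm (adjusted p = 0.111), all against the same 5 water arrays. At 1 week its water arrays had read 9.79 to 9.87, above each of the 12-week water arrays.

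Dnajb6 rose over the dose steps of 12 weeks, by 0.09 ± 0.02 per step (adjusted p = 0.0294, 25 arrays). It was the 1 member of 42 called (2.38%), where 5.26% of all genes were, so that here too the share lies below the background. Its mean was 11.53 in water, 11.52 at 0.5 ppm, 11.61 at 2 ppm, 11.75 at 10 ppm and 11.86 at 50 ppm. At 50 ppm the arrays read 11.80, 11.75, 11.72, 11.98 and 12.06, against 11.72, 11.04, 11.59, 11.62 and 11.66 in water. The highest water array lay just below the lowest at 50 ppm, and the difference of 0.34 ± 0.11 had an adjusted p of 0.069. The slope lost its call without replicate 2 of water (0.07, adjusted p = 0.0815) and without replicate 4 or 5 of 50 ppm. Without replicate 1 of 0.5 ppm 10 members were called, a count for which the share of all genes is not given here. The 3 other probe sets of Dnajb6 gave 0.17 (1429776_a_at, limma adjusted p = 0.0193), 0.02 (1434035_at, adjusted p = 0.603) and -0.08 (1429777_at, adjusted p = 0.582) per step.

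By class, at 50 ppm after 12 weeks 3 of 4 class A members lay above water, with a median change of 0.12, 6 of 12 in class B with -0.08 and 15 of 26 in class C with 0.06, against -0.04 over all genes. The cytosolic list had 6 of 8 members higher and a median of 0.21, led by Dnaja1 at 0.72 ± 0.25 (adjusted p = 0.0884). Dnaja1 read 10.93, 10.91, 10.40, 11.73 and 11.30 at 50 ppm, against 10.91, 9.81, 10.29, 10.23 and 10.44 in water, so that the groups overlapped. In the endoplasmic reticulum 7 of 11 were higher with a median of 0.15, in mitochondria 1 of 6 with -0.14, the exception being Dnajc28 at 0.39 ± 0.22. Of the 7 members at ribosomes, RNA, chromatin and in the nucleus 6 were higher with a median of 0.12. Dnajc2 stood at 0.65 ± 0.24 (adjusted p = 0.102). All 4 testis-enriched members that were tested had lower means than water, with a median of -0.48, and Dnajb8 stood at -0.69 ± 0.42 (adjusted p = 0.325). None of the 4 was called. Dnajb3, Dnajc5b and Dnajb8 among them are dim, above the 40th percentile in 4, 5 and 15 of the 49 arrays, so this median rests largely on low signals. Of the 6 lists, which share Dnajc1 and Dnajc5b between them, vesicles and clathrin alone held a called member at this dose, Dnajc13.

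Lower doses gave no call at 12 weeks. At 0.5 ppm limma called 0 of 42, with 5 at an unadjusted p under 0.05, where 0.527% and 19% of all genes were, and Dnajc13 had the smallest p. At 2 ppm the counts were 0 and 5, with 0.0137% and 9.91% of all genes, and the smallest p was that of Dnajc2. It read 7.92, 8.15, 7.94, 7.56 and 8.25 at 2 ppm, against 7.27, 7.44, 7.39, 6.90 and 6.73 in water, without overlap, and its change of 0.82 ± 0.24 had an adjusted p of 0.427. At 10 ppm the counts were 0 and 7, with 0.335% and 16% of all genes, and Dnajc13 had the smallest p. Medians at 0.5, 2 and 10 ppm were 0.02, 0.07 and 0.07 in class A, -0.05, 0.10 and 0.05 in class B, and 0.00, -0.03 and 0.07 in class C. Dnajb5 at 0.5 ppm read 10.09, 10.43, 10.22, 10.55 and 10.22, against 10.00, 10.03, 9.72, 9.82 and 9.59 in water, a change of 0.47 ± 0.15 (adjusted p = 0.0953), and its probe set 1421961_a_at passed with 0.78 (adjusted p = 0.0368). The mean of the skeletal muscle markers was higher at 0.5 ppm as well, at 11.39 against 11.01 in water, and their part was not tested.

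Controls and handling genes moved with dose at 12 weeks. The mean of 7 immediate early genes, which respond quickly when tissue is handled, was 9.52 at 50 ppm (9.16 to 9.92), against 11.17 in water (10.52 to 11.98), and 4 of the 7 fell. The hybridization controls averaged 11.72 at 50 ppm and 11.20 in water. The level of poly-A spikes, control transcripts added before labelling, had a group mean of 10.71 in water, 10.3 at 0.5 ppm, 10.21 at 2 ppm, 9.65 at 10 ppm and 9.84 at 50 ppm, while at 1 week the groups lay between 10.67 and 11.05. With this level as a covariate Dnajc13 at 50 ppm stood at 0.03 (adjusted p = 0.966), Dnaja1 at -0.01 (adjusted p = 0.997) and the slope of Dnajb6 at 0.06 (adjusted p = 0.652). Over all genes the covariate left 1 call in place of 594 at 50 ppm after 12 weeks and 0 in place of 769 over the dose steps. Dnajb14 at 50 ppm after 1 week, where the spike means were 10.67 in the 50 ppm group and 10.83 in water, kept its call with it. At 50 ppm after 12 weeks 7 of 7 smooth muscle markers (mean 14.52 against 14.24 in water) and 6 of 6 fibroblast markers (13.28 against 12.97) also had higher means than water, and limma called 0 of either, with 5 of the 7 and 2 of the 6 at an unadjusted p under 0.05. The part of the handling genes and of these markers in the 12-week values was not tested.

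Whether 50 ppm acted differently after 12 weeks than after 1 week was tested as the difference of both effects. It passed for 5 members, Dnajb14, Dnajc3, Dnajb6, Dnajb9 and Dnajc13, each with a higher effect at 12 weeks. That is 11.9% of the 42, where 7.36% of all genes were called. Of the 7 liver markers 5 were called higher as well, and their part was not tested. Dnajb14 differed by 1.78 ± 0.34 (adjusted p = 0.00214) and Dnajc13 by 0.45 ± 0.15 (adjusted p = 0.0468). The other probe set of Dnajb14 differed by 0.35 ± 0.23 (adjusted p = 0.401) and that of Dnajc13 by 1.07 ± 0.58 (adjusted p = 0.283), and neither passed. Of these 5, Dnajb9 and Dnajc3 act in the lumen of the endoplasmic reticulum with the HSP70 BiP and are textbook targets of the unfolded protein response. Upstream sequences of Dnajb6 and Dnajc3 are shown because they hold a heat shock element or an endoplasmic reticulum stress element. The motifs in them are thus the ground of the choice and no result of it. Dnajb9 was added because, like Dnajb6 and Dnajc3, it passed this test and was lowest in its groups on the same 2 arrays. RefSeq promoters (build GRCm38.p6, 250 bases before to 50 after a start site) were matched for 36 of the 44 members, and capitals mark the motif found.

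Dnajb6: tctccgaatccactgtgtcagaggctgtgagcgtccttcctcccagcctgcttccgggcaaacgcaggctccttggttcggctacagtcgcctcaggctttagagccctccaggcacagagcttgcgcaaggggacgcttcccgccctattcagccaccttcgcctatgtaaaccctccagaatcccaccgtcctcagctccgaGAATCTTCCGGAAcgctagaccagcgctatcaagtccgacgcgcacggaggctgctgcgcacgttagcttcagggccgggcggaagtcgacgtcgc
Dnajb9: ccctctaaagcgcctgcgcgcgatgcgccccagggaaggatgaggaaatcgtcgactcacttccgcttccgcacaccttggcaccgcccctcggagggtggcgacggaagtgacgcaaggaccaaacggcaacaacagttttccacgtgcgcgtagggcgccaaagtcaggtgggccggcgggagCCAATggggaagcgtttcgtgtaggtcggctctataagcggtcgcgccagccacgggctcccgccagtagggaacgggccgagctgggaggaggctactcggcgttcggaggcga
Dnajc3: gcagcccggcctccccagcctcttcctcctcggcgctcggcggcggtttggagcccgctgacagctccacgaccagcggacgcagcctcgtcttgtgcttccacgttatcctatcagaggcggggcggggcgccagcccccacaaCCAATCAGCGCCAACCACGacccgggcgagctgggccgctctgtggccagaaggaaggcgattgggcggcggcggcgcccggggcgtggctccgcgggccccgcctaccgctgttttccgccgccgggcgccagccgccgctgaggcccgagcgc

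The Dnajb6 window lies at chr5:29735648-29735947 on the plus strand and holds the heat shock element GAANNTTCNNGAA, searched also as TTCNNGAANNTTC, at position -46 from the start site. From another listed Dnajb6 start site, with the window chr5:29735729-29736028, the same motif lies at position -127. That motif occurs in 0.603% of 32851 promoters of the same length and in no other matched member. The Dnajc3 window at chr14:118937682-118937981 on the plus strand holds the endoplasmic reticulum stress element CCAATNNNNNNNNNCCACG, or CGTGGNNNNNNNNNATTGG on the other strand, at position -105. It occurs in 0.119% of all promoters, and Dnajc3 is the 1 member with it. The Dnajb9 window at chr12:44210019-44210318 on the minus strand holds neither, and its capitals mark, at position -65, the CCAAT box. That box was searched on either strand (as CCAAT or ATTGG). It was found in 37.4% of promoters, and by gene in 41.1% of all genes and in 14 of the 36 matched members. The stress element begins with that box, so these searches overlap. A match of letters is a description of the sequence and no measurement of binding.

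Dnajc3 is an inhibitor of eIF2 alpha kinases as well as a lumenal cochaperone. It read 10.15, 9.89, 9.40, 9.58 and 9.63 at 50 ppm and 9.65, 8.56, 9.37, 9.49 and 9.33 in water after 12 weeks. After 1 week it read 9.76, 8.84, 9.60, 9.11 and 9.61 at 50 ppm and 9.58, 9.78, 9.95, 9.62 and 9.54 in water. In both harvests the groups overlapped, and the difference of effects was 0.76 ± 0.22 (adjusted p = 0.0293). Its probe sets 1449372_at (0.79, adjusted p = 0.0458) and 1419163_s_at (1.32, adjusted p = 0.00299) also passed, while 1419162_s_at (0.33) and 1449373_at (0.55) did not.

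Dnajb9, which has 1 probe set, read 11.45, 11.71, 11.53, 11.12 and 11.42 at 50 ppm and 11.15, 10.39, 11.01, 11.35 and 11.04 in water after 12 weeks. After 1 week it read 11.14, 10.06, 10.76, 10.88 and 11.11 at 50 ppm and 11.12, 11.26, 10.96, 10.77 and 10.89 in water. The groups overlapped in both harvests, and the effects differed by 0.67 ± 0.21 (adjusted p = 0.0377). Dnajb6 differed by 0.67 ± 0.20 (adjusted p = 0.0353), and its other probe sets by 0.86 (1429776_a_at, adjusted p = 0.0445), 0.13 (1434035_at, adjusted p = 0.602) and 0.05 (1429777_at, adjusted p = 0.962).

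In Dnajb6, Dnajb9 and Dnajc3 the same arrays were lowest in their groups, replicate 2 of water at 12 weeks and replicate 2 of 50 ppm at 1 week. Without both arrays 1 member was called, Dnajb14 at 1.74 (adjusted p = 0.00772). Dnajb6 then stood at 0.32 (adjusted p = 0.231), Dnajb9 at 0.34 (adjusted p = 0.275), Dnajc3 at 0.44 (adjusted p = 0.212) and Dnajc13 at 0.38 (adjusted p = 0.175). Over all genes 273 were called without them and 1076 with them. In fits that left out 1 of the 20 arrays, the call was kept in 20 for Dnajb14, 14 for Dnajc3, 13 for Dnajb6, 12 for Dnajb9 and 4 for Dnajc13. Without replicate 1 of water at 12 weeks 8 members were called, and the share of all genes in that fit is not given here.

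**Figure D3:**
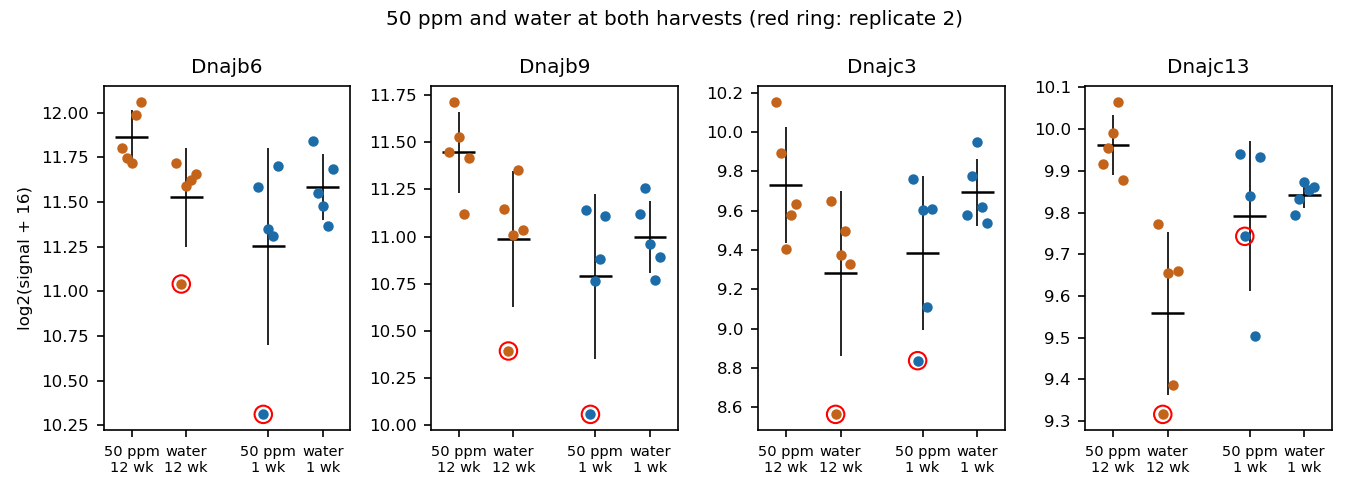
Log2 signal of Dnajb6, Dnajb9, Dnajc3 and Dnajc13 in each array of 50 ppm and water at 12 weeks (orange) and 1 week (blue), with group means (bars) and SD (lines). Red rings mark replicate 2 of water at 12 weeks and of 50 ppm at 1 week, the lowest of their groups in the first 3 genes, for example 11.04 and 10.31 in Dnajb6.

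Between the water groups, 12 weeks against 1 week, 5 of 42 members were called (11.9%), where 13.4% of all genes were. Age, harvest day and array batch cannot be told apart in this comparison. Dnaja4, Dnajc12 and Dnajc16 were higher at 12 weeks, and Dnajb5 and Dnajb14 lower. Class medians were 0.05 in class A, -0.04 in class B and 0.05 in class C, against 0.02 over all genes.

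Dnajb5 read 10.00, 10.03, 9.72, 9.82 and 9.59 in water at 12 weeks, against 10.33, 10.75, 10.72, 10.86 and 10.70 at 1 week. The harvests did not overlap, the change was -0.84 ± 0.17 (adjusted p = 0.000641), and both other probe sets were called too (-0.68, adjusted p = 0.00313, and -0.69, adjusted p = 0.00498). Dnajb14 was lower by the same test (-1.29 ± 0.24, adjusted p = 0.000234) in the probe set used, and its other probe set was at -0.23 (adjusted p = 0.41). Dnaja4, a cytosolic class A protein, read 9.94, 9.89, 10.17, 9.92 and 10.06 at 12 weeks, against 9.76, 9.59, 9.69, 9.75 and 9.64 at 1 week. It did not overlap either, at 0.31 ± 0.08 (adjusted p = 0.011), and its other probe sets gave 0.40 (adjusted p = 0.00322) and 0.46 (adjusted p = 0.00674). At all arsenate doses its changes against water stayed between -0.07 and 0.08.

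Dnajc12, a cochaperone of the aromatic amino acid hydroxylases, read 10.27, 10.58, 10.43, 10.42 and 10.43 at 12 weeks, against 10.15, 10.07, 10.13, 10.32 and 10.00 at 1 week. These ranges overlapped, and the change was 0.30 ± 0.09 (adjusted p = 0.0215). Dnajc16, of the endoplasmic reticulum membrane, read 8.83, 8.63, 8.81, 9.26 and 9.09 at 12 weeks, against 8.59, 8.60, 8.12, 8.49 and 8.30 at 1 week. It did not overlap, at 0.51 ± 0.17 (adjusted p = 0.042), and its other probe set stood at 0.21 (adjusted p = 0.284). The call was kept in 10 of 10 fits without 1 array for Dnajb5 and Dnajb14, and in 9 for Dnaja4 (lost without replicate 3 of 12 weeks), 7 for Dnajc12 and 4 for Dnajc16. Without replicate 2 of water at 12 weeks and of 50 ppm at 1 week, Dnajc12 stood at 0.26 (adjusted p = 0.0503), the other 4 kept their calls, and Dnajc5, Dnajc6 and Dnajc17 were called as well. That fit called 7 members and 2337 of the 14624 genes, against 5 members and 1953 genes with both arrays, so calls rose over all genes too. The cell type markers moved with harvest as well. In water, 5 of 6 fibroblast, 3 of 3 skeletal muscle, 3 of 7 smooth muscle and 7 of 7 liver markers were called lower at 12 weeks, and the mean of the fibroblast markers was 12.97 at 12 weeks against 13.81 at 1 week. The immediate early genes stood higher at 12 weeks in 7 of 7, with 4 called (Egr1, Fos, Fosb and Nr4a1) and a mean of 11.17 against 10.11 at 1 week. The hybridization controls averaged 11.20 at 12 weeks and 11.64 at 1 week. The part of these shifts in the 5 calls was not tested.

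**Figure D4:**
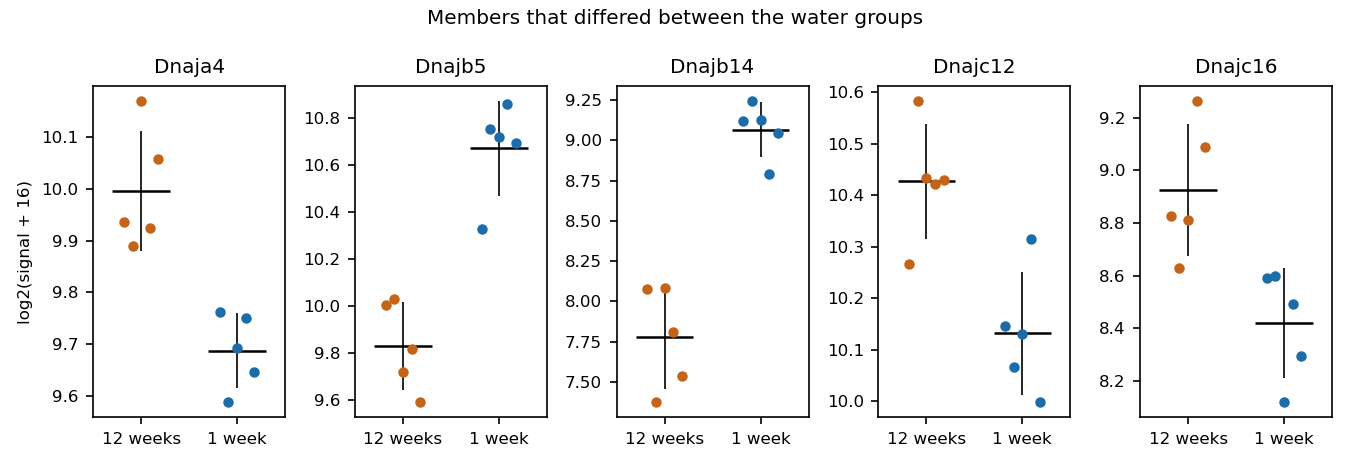
Log2 signal in each water array at 12 weeks (orange, left) and 1 week (blue, right) of the 5 members called between the water groups, with means (bars) and SD (lines). Dnajb5 and Dnajb14 are lower at 12 weeks (9.83 against 10.67 and 7.78 against 9.06), and Dnaja4, Dnajc12 and Dnajc16 higher.

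J-domain proteins work with HSP70 chaperones. Of 14 tested HSP70 genes limma called 0 at 50 ppm in either harvest, where 4.06% of all genes were called at 12 weeks and 0.335% at 1 week. At an unadjusted p under 0.05 there were 4 of the 14 at 12 weeks and 2 at 1 week, where 24.1% and 11.5% of all genes passed. Hspa8, the constitutive HSP70 (0.08 ± 0.02 per step, adjusted p = 0.0418), and Hspa4 (0.14 ± 0.04, adjusted p = 0.0283) rose over the dose steps of 12 weeks. Stress-inducible Hspa1a fell at 0.5 ppm after 1 week by 0.63 (adjusted p = 0.0234). Hspa5, which encodes BiP, stood at 0.50 ± 0.19 at 50 ppm after 12 weeks (adjusted p = 0.102) and at -0.21 ± 0.16 after 1 week. Among 9 nucleotide exchange factors, which release ADP from HSP70, Hspbp1 fell by 0.57 (± 0.12, adjusted p = 0.0165) at 50 ppm after 12 weeks and over the dose steps (-0.13 ± 0.03 per step, adjusted p = 0.0098). Of the endoplasmic reticulum stress list, 1 of 8 rose at that dose, the disulfide isomerase Pdia4 (0.65 ± 0.19, adjusted p = 0.0471), which also rose at 10 ppm (0.93 ± 0.19, adjusted p = 0.0235). Over the dose steps of 12 weeks Pdia4 (0.23 ± 0.05, adjusted p = 0.0175) and Sdf2l1 (0.17 ± 0.04, adjusted p = 0.0175) rose. Of 9 tested HSP90, small and mitochondrial chaperones and heat shock factors, the small heat shock protein gene Hspb8 fell at 10 ppm after 1 week (-0.53 ± 0.13, adjusted p = 0.0477). Sec63, a J-domain protein of the translocon outside the Dnaj symbols, rose at 0.5 ppm (0.64 ± 0.15, adjusted p = 0.0404) and 50 ppm (0.53 ± 0.15, adjusted p = 0.0392) after 12 weeks.

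When the fit included the poly-A spike level, most of these dose calls of 12 weeks were lost. That level itself moved with dose at 12 weeks, so spike level and dose cannot be fully told apart in this fit. Of the 3 genes of these lists called at 50 ppm, 0 were then called. Pdia4 stood at 0.99 ± 0.26 (limma adjusted p = 0.159), Hspbp1 at -0.42 ± 0.17 (adjusted p = 0.381) and Sec63 at 0.23 ± 0.20 (adjusted p = 0.743). Over the dose steps 5 genes of these lists had been called, where 5.26% of all genes were, and with the covariate 0 were. Slopes were then 0.12 ± 0.03 for Hspa8 (limma adjusted p = 0.319), 0.22 ± 0.08 for Pdia4 (adjusted p = 0.412) and -0.10 ± 0.04 for Hspbp1 (adjusted p = 0.423). Those of Sdf2l1 and Hspa4 were 0.15 ± 0.06 (adjusted p = 0.441) and 0.05 ± 0.05 (adjusted p = 0.806). Calls were thus lost both where the change shrank and where it did not. Sec63 at 0.5 ppm (0.50, limma adjusted p = 0.322) was lost too, and Pdia4 at 10 ppm kept its call (1.35, adjusted p = 0.0432). At 1 week Hspa1a kept its call (-0.60, limma adjusted p = 0.0371) and Hspb8 did not (-0.53, adjusted p = 0.0598).

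Tested in these lists were 14 HSP70 genes, 9 nucleotide exchange factors and 9 HSP90, small and mitochondrial chaperones and heat shock factors. Also tested were 3 J-domain proteins under other symbols and 8 endoplasmic reticulum stress genes. The 50 ppm effect at 12 weeks differed from that at 1 week for 3 genes of these lists, where 7.36% of all genes were called. The difference was 1.3 ± 0.29 for Pdia4 (adjusted p = 0.00658), 0.90 ± 0.29 for Sdf2l1 (adjusted p = 0.0459) and -0.71 ± 0.17 for Hspbp1 (adjusted p = 0.0112). With the spike covariate 1 of the 3 was called, Pdia4 (1.35, adjusted p = 0.0391). Hspbp1 then stood at -0.60 (limma adjusted p = 0.137) and Sdf2l1 at 0.77 (adjusted p = 0.26). Between the water groups, 12 weeks against 1 week, 10 genes of these lists were called, where 13.4% of all genes were. The same 10 were called with the covariate. Bag4, which encodes a BAG domain protein (0.37 ± 0.11, adjusted p = 0.0149), and Hscb, a J-domain protein of iron-sulfur cluster assembly (0.28 ± 0.08, adjusted p = 0.0137), were higher at 12 weeks. Lower at 12 weeks were Sdf2l1 (-1.1 ± 0.20, adjusted p = 0.000238), Pdia4 (-0.75 ± 0.21, adjusted p = 0.0111) and Creld2 (-0.38 ± 0.11, adjusted p = 0.0191) of the endoplasmic reticulum stress list. Also lower were Bag2 (-0.38 ± 0.09, adjusted p = 0.00535), Hspa8 (-0.25 ± 0.08, adjusted p = 0.0352) and Sec63 (-0.40 ± 0.14, adjusted p = 0.0455). The small heat shock protein genes Hspb8 (-0.44 ± 0.13, adjusted p = 0.0154) and Cryab (-0.41 ± 0.12, adjusted p = 0.0179) were lower as well.

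Some pairs of members varied together from array to array, each array being that of 1 mouse. Over the deviations from group means in 49 arrays, the 861 pairs of tested members had a median correlation of r = 0.024, with 70 pairs over 0.5 (8.13%) and 31 under -0.5 (3.6%). Over all pairs of the 14624 genes the shares were 4.13% and 3.59%. The highest were Dnaja2 with Dnajb6 (0.888), Dnaja1 with Dnajb4 (0.853), Dnajb6 with Dnajc5 (0.817), Dnaja1 with Dnajc10 (0.805) and Dnajb4 with Dnajc10 (0.795). The lowest were Dnaja1 with Dnajb2 (-0.754) and with Dnajc30 (-0.751). Dnaja1, Dnaja2, Dnajb4, Dnajb6 and Dnajc3 each had 11 partners over 0.5, and Dnajc7, a protein with tetratricopeptide repeats, had 12. This block crosses the classes, and Dnajc30, a mitochondrial protein, had 12 partners under -0.5. Arrays share labelling and scaling across all genes, and the poly-A spike level correlated within groups with members of both ends, at -0.412 with Dnaja1, -0.453 with Dnajc3 and 0.515 with Dnajc30. The part of the spike level in the pairs was not tested. The arrays that stood apart most from their groups enter these correlations, and values without them are not given. At 50 ppm after 1 week, for example, the lowest array read 11.84 in Dnaja2 and 10.31 in Dnajb6, against group medians of 12.69 and 11.35.

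**Figure D5:**
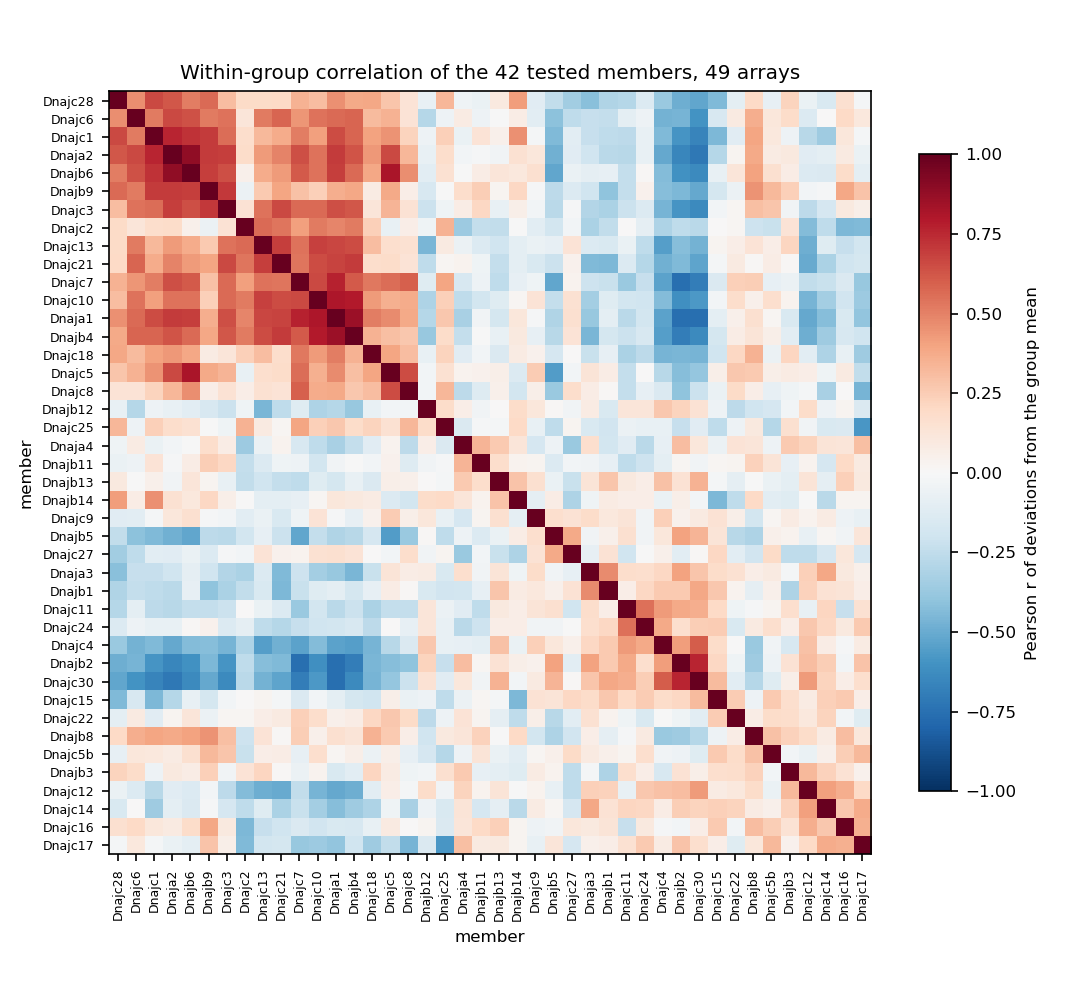
Pearson correlation of deviations from group means over 49 arrays between the 42 tested members, ordered by likeness, from blue (-1) to red (1). A block with Dnaja1, Dnaja2, Dnajb4, Dnajb6 and Dnajc3 is positively correlated within itself and negatively with Dnajb2 and Dnajc30.

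A further 48 probe sets of 27 members could be set beside the ones used. Between 27 and 42 of them had the same sign of change, depending on the comparison. Some were called where the probe set used was not. At 50 ppm after 1 week, Dnajc1, a ribosome-associated protein of the endoplasmic reticulum, was lower in 1447649_x_at (-1.15 ± 0.22, adjusted p = 0.00815) and 1459791_at (-1.19 ± 0.29, adjusted p = 0.0446), but stood at -0.18 in the set used. Dnajc3 was higher in 1419163_s_at at 50 ppm after 12 weeks (0.88 ± 0.21, adjusted p = 0.0305), against 0.45 ± 0.17 (adjusted p = 0.102) in the set used. Dnajc13 was lower at 10 ppm after 1 week in 1445337_at (-1.41 ± 0.30, adjusted p = 0.0305), against -0.19 ± 0.09 in the set used. Names ending in s_at or x_at mark probes that may also match other transcripts, which the sets used for Dnaja2, Dnajb5, Dnajc2 and Dnajc24 share.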

How the data were processed

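Bladder RNA of 49 mice, 1 mouse an array, was extracted with Trizol and Qiagen reagents, labelled with biotin and hybridised to 1-colour Affymetrix Mouse430_2 arrays, per the labels. The files hold 1 linear intensity per probe set and array, as deposited. GCOS 1.0 appears in the submitters' processing notes, and its settings are not stated. The authors had scaled these intensity values, since their 2% trimmed mean was 500.003 to 500.004 on every array. No further scaling was applied here, and array medians spanned 0.461 on the log2 scale.

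Signals were taken as log2(value + 16), and a group mean under 5 is called near the floor. Genes above the 40th percentile of an array in at least 4 arrays were kept, each with its probe set of highest mean. limma 3.58.1 (lmFit, eBayes with trend) in R 4.3.3 fitted each harvest alone for dose comparisons and slopes, and all 49 arrays for the water groups and the difference of 50 ppm effects, with Benjamini-Hochberg adjustment over 14624 genes. The number of arrays limits the precision. In simulated data of 50 ppm after 1 week with 14624 genes this fit called 47.8% of genes changed 1.5-fold, 80.6% of those changed 2-fold and 100% of those changed 4-fold. For 50 ppm after 12 weeks it called 58.2%, 77.6% and 98.5%.

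Members and lists were chosen with earlier results of these data known. Named members are those called, the 3 of widest range of group means in each class, the smallest p where none was called, the 5 highest and 2 lowest correlated pairs, and the largest change at 50 ppm in each role list. Of partner lists, called genes and up to 4 others are named. Dnajc19 is on a probe set of several genes and is no member. Alternatives were 2 other offsets, quantile normalization, other filters, all probe sets, RNA integrity, spike and hybridization covariates, array weights, 1 fit of all arrays, a replicate block and each array left out. The RNA integrity fit leaves out replicates 1 and 2 of 10 ppm at 1 week, for which it is not recorded.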

Additional observations from a re-analysis of the deposited data

Results flagged for a closer look

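In 12 of 210 groups of the 21 named members, 1 array lay far from the others of its group, judged by its gap to the nearest array over the range of the group. Chance gives about 1 in 20. The share of the range taken by the gap was 0.917 for Dnajb14 at 50 ppm after 12 weeks, where replicate 5 read 9.74 and the others 8.02 to 8.16. For Dnajb6 it was 0.717 at 50 ppm after 1 week and 0.816 in water at 12 weeks, both replicate 2 and both low. Dnajc11 had 0.798 at 50 ppm after 1 week, where replicate 2 was high at 10.03, and 0.717 at 10 ppm after 12 weeks, where replicate 3 was low at 9.05. Replicate 4 of 10 ppm at 12 weeks was low in Dnajc13 (0.757) and in Dnaja1 (0.78). At 0.5 ppm after 1 week Dnaja4 (0.895, replicate 5) and Dnajb4 (0.873, replicate 4) each had 1 high array. Dnajc12 had a high array at 50 ppm after 12 weeks (0.798, replicate 2), Dnajb3 one in water at 12 weeks (0.859, replicate 3) and Dnajb8 a low one at 10 ppm after 1 week (0.734, replicate 2).

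The effect of 50 ppm differed between 12 weeks and 1 week in 5 members by limma's test of the difference. It was 1.784 in Dnajb14, 0.7593 in Dnajc3, 0.6714 in Dnajb6, 0.6679 in Dnajb9 and 0.4547 in Dnajc13. The differences in Dnajc3, Dnajb6, Dnajb9 and Dnajc13 did not pass without replicate 2 of 50 ppm at 1 week and replicate 2 of water at 12 weeks.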

How the results depend on the processing

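The number of members called moved with the setting in 8 of the 12 comparisons, the others being 2 ppm in each harvest, 50 ppm after 1 week and the slope of 1 week. The cause was not tested. Array weights gave 1 at 0.5 ppm and 3 at 10 ppm after 1 week, 2 at 0.5 ppm, 2 at 10 ppm and 5 at 50 ppm after 12 weeks, 8 for the slope of 12 weeks and 11 between the water groups. The counts over all genes with array weights are given below. A single fit over all arrays gave 1 at 10 ppm after 1 week and 1, 2 and 3 at 0.5, 10 and 50 ppm after 12 weeks. Of all 14624 genes it called 125, 459, 226 and 1187 in the same comparisons. At 10 ppm after 1 week quantile normalization gave 1 and RNA integrity 2, and at 0.5 ppm after 12 weeks a filter at the 60th percentile gave 1. Over all genes these called 199 and 736 of 14624 and 155 of 10935. At 50 ppm after 12 weeks the count was 0 with quantile normalization, no filter, all probe sets, RNA integrity or the spike covariate, and 2 with hybridization as covariate. Over all genes 557 were called there with quantile normalization, 487 without a filter and 514 with hybridization. The spike covariate gave 0 for the slope of 12 weeks and 1 for the difference between harvests. Without replicate 2 of 50 ppm at 1 week and of water at 12 weeks, an alternative added after seeing the data, the counts were 0, 0 and 1 for 50 ppm after 12 weeks, its slope and the difference. Over all genes 47, 273 and 273 were called in these.

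Leaving out 1 array at a time gave 0 to 1 at 10 ppm after 1 week and at 0.5 and 10 ppm after 12 weeks, 0 to 8 at 50 ppm after 12 weeks, 0 to 10 for the slope of 12 weeks, 3 to 7 between the water groups and 1 to 8 for the difference. Both counts of 8 came without replicate 1 of water at 12 weeks, the 10 without replicate 1 of 0.5 ppm at 12 weeks, and the 3 without replicate 3 of water at 12 weeks or replicate 5 at 1 week. Shares of all genes called in these fits are not given, so the counts cannot be read as a trait of the members. Of 39 pairs of same-numbered mice 6 deviated together with r over 0.1, and r ran from -0.087 to 0.389. The highest was that of replicate 1 of 0.5 ppm and of water at 12 weeks. A fit with the replicate block gave as many calls in each comparison, among them 1 at 50 ppm in each harvest and 5 for the difference.

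A single member's change turned in sign in 8 cases. Another probe set gave -0.0779 for the called slope of Dnajb6, -0.71 for Dnajc21 at 0.5 ppm after 1 week, -0.0136 for Dnajc2 at 2 ppm after 12 weeks, -0.56 for Dnajc22 at 50 ppm after 1 week, and 0.12 and 0.24 for Dnajc2 at that dose. With the spike covariate Dnajc13 at 10 ppm after 12 weeks stood at -0.0702 and Dnaja1 at 50 ppm at -0.00786.

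Over all genes, the 594 calls at 50 ppm after 12 weeks became 1 with the spike covariate, 285 with RNA integrity, 1331 with array weights and 1187 in a single fit. The 769 of the slope became 0 with the spike covariate, 155 with hybridization and 1732 with array weights. The 114 at 10 ppm after 1 week became 736 with RNA integrity and 1262 with array weights, and the 49 at 50 ppm became 248 with array weights. The 1953 between the water groups became 3219 with array weights, and the 1076 of the difference 64 with the spike covariate. The 77 at 0.5 ppm after 12 weeks ran from 0 with RNA integrity to 534 with array weights, the 49 at 10 ppm from 20 with hybridization to 497 with array weights, the 7 at 0.5 ppm after 1 week from 2 with the replicate block to 401 with array weights, and the 39 of the slope of 1 week from 8 without water to 116 with array weights.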

Other observations

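Genes whose probe sets varied most like 1430561_at of Dnajb14 within groups were found after its values were seen, and are given as a description. Over 49 arrays they were Prdm2, a histone methyltransferase (r = 0.874), Ubn1, a histone chaperone subunit (0.862), Gm4432 (0.861), Zfp280d (0.856), the splicing factor Sfpq (0.854), the transcription factor Sp1 (0.839), Sesn3 (0.834), the repressor Rest (0.82) and Krit1 (0.81). None of the other J-domain members had a correlation over 0.5 with Dnajb14. All arrays share labelling and scaling, so these values carry no p.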
